A study of Homo sapiens with 2 samples.

Results

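The guide strands of the miR-17, miR-18 and miR-19 seed families, the oncomiRs of the miR-17-92 and miR-106b-25 clusters without the miR-25/92 seed, were followed in an MS2 pulldown of the long non-coding RNA SNHG15. Members were chosen by name. Of 9 listed, 7 had a row among the 407 miRNAs of the count table: hsa-miR-17-5p, hsa-miR-18a-5p, hsa-miR-19a-3p, hsa-miR-19b-3p, hsa-miR-20a-5p, hsa-miR-93-5p and hsa-miR-106b-5p. The species prefix is left out below. miR-20b-5p and miR-106a-5p were not analysed here. The cells were BT549, an established human breast cancer line that overexpresses SNHG15 carrying MS2 hairpins (genotype SNHG15-MS2 overexpression), and both libraries came from them. For the pulldown, lysate was kept for 5 h at 4 °C with amylose resin bearing MBP-MCP, the phage coat protein that grips MS2 hairpins joined to maltose binding protein. For the control, lysate was kept as long with amylose resin alone. The question was which miRNAs travel with SNHG15. Cells lacking the tagged RNA were not among the samples used here, so miRNA held by the MBP-MCP protein and miRNA held through SNHG15 cannot be told apart. Each resin gave 1 library, so no difference below has a replicate check. All intervals are exact 95% intervals that cover counting error only.

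The miR-17-92 cluster is a polycistron: several hairpins are cut from 1 primary transcript, and the guide strands are loaded into Argonaute. MYC and E2F factors activate it, and its products restrain cell cycle inhibitors and pro-apoptotic genes, among them CDKN1A and BCL2L11. The miR-106b-25 cluster is its paralogue and is made with MCM7, a subunit of the replicative helicase. A miRNA finds most of its targets through its seed, bases 2 to 8 from the 5′ end, so members with 1 seed can share targets whichever cluster they come from.

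The mature sequences are shown because seeds set the family groups and near-identity sets how far reads can be assigned. They are given 5′ to 3′ as RefSeq holds them (GRCh38.p14), with the seed in capitals. All 9 listed names matched an entry. The first 6 share the seed AAAGUGC:
miR-93-5p: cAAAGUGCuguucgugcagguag
miR-20a-5p: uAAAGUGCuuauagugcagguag
miR-17-5p: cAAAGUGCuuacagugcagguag
miR-106b-5p: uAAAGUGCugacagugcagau
miR-106a-5p: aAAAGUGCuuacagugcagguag
miR-20b-5p: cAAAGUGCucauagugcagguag
miR-18a-5p: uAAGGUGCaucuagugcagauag
miR-19a-3p: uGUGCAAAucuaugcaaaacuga
miR-19b-3p: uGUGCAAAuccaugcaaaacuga

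Positions are counted from 1 at the 5′ end. The miR-18 seed differs from the miR-17 seed at 1 base (A4G, miR-17-5p to miR-18a-5p). miR-17-5p and miR-20a-5p differ at 2 of 23 bases (C1U and C12U), both outside the seed. miR-17-5p and miR-106a-5p differ at 1 (C1A), and miR-19a-3p and miR-19b-3p at 1 (U11C). miR-93-5p has 4 differences from miR-17-5p (U10G, A11U, C12U and A13C, miR-17-5p to miR-93-5p). It has 3 differences from miR-20b-5p (G10C, U11A and C13A, miR-93-5p to miR-20b-5p). With the way of assigning reads that fit several of these miRNAs not stated,  the split between miR-17-5p, miR-20a-5p and their near copies is uncertain. Sums over a seed family are less exposed to it and are given beside the single members.

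By GENCODE 29 on GRCh38, MIR17 (chromosome 13, 91350605 to 91350688, plus strand), MIR18A (91350751 to 91350821), MIR19A (91350891 to 91350972), MIR20A (91351065 to 91351135) and MIR19B1 (91351192 to 91351278) lie with MIR92A1 in MIR17HG. The 6 hairpins span 787 bases, inside an exon of 2 and an intron of 1 of its 3 annotated transcripts. miR-19b-3p is also made from MIR19B2 (chromosome X, 134169671 to 134169766, minus strand). MIR93 (chromosome 7, 100093768 to 100093847, minus strand) and MIR106B (100093993 to 100094074) lie with MIR25 inside 515 bases of MCM7, in an intron of all 8 transcripts that span them.

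Levels are RPM, miRNA reads scaled to a library of 1000000. RPM carries no length term, and the guides are all 21 to 23 bases long. The table held 202560 reads for the pulldown and 111414 for the control. Markers of mesenchymal-like breast lines (miR-100-5p, miR-125b-5p, miR-221-3p, miR-222-3p) made up 6.24% and 6.89% of reads. Most were miR-125b-5p, with 10378 and 6539 reads, while miR-222-3p had 51 and 30. Of 5 epithelial markers of the miR-200 family, 1 was in the table, with 1 read in each library, and 5 of 7 blood cell markers made up 0.0736% and 0.0691%. The only blood cell marker with 20 reads was miR-486-5p, with 133 and 62.

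The 7 guides together had 4312 pulldown reads and 2394 control reads. That was 2.13% (2.07 to 2.19) of the pulldown and 2.15% (2.06 to 2.24) of the control, a ratio of 0.991 (0.942 to 1.04). The shares of the group in the libraries differed by less than counting error. Of the 5 members that reached 20 reads in either library, 0 differed by 2-fold, and 0 had an interval that excluded equality, also without the read minimum. Over all 161 miRNAs with 20 reads, 5.59% differed by 2-fold, and 34.8% had an interval that excluded equality. At 1.5-fold, 1 of the 5 members passed (miR-17-5p, lower), against 21.1% of all 161. Of the 7, 4 had a ratio above 1 and 3 below it. Their median log2 ratio was 0.12, or −0.01 over the 5 with 20 reads, against −0.16 over all 161 and −0.06 over the 133 of these that are named and not numbered predictions.

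**Figure D1:**
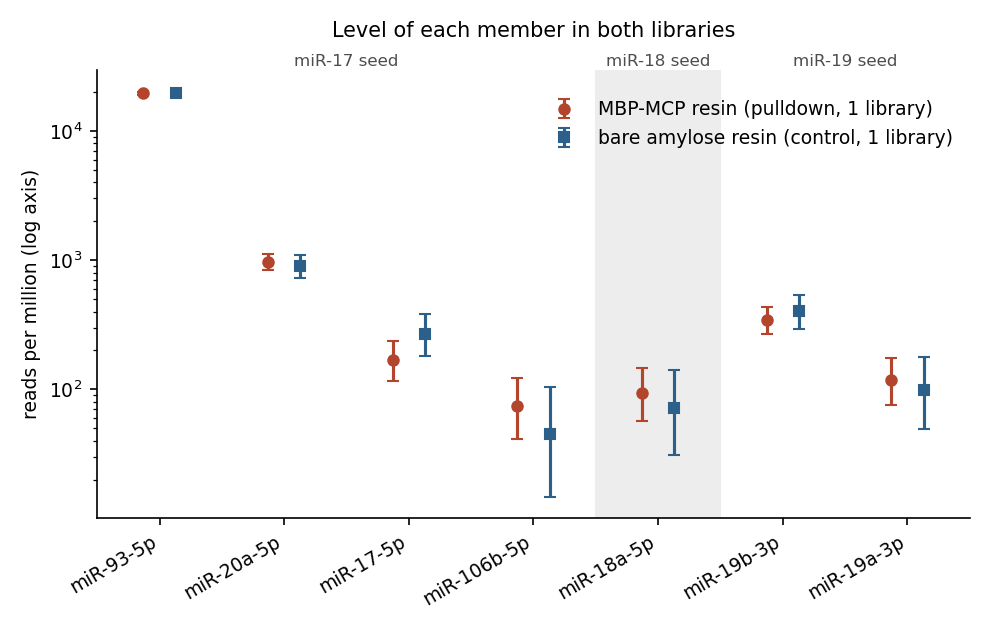
Level of each member in RPM on a log axis, with exact 95% Poisson intervals, for the pulldown (circles) and the control (squares), 1 library each, grouped by seed. miR-93-5p stands 20.1-fold above miR-20a-5p in the pulldown and 21.9-fold in the control, and the intervals of every member overlap between libraries.

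miR-93-5p, a repressor of CDKN1A made within MCM7, carried nearly all of the family's reads. It had 3953 reads in the pulldown and 2195 in the control, ranking 9 of 407 in both. Its level was 19515 RPM (18912 to 20133) in the pulldown and 19701 RPM (18886 to 20543) in the control. The ratio of 0.991 (0.940 to 1.04) is the most precise among the members. With total reads, counting error leaves room for at most a 1.06-fold lower or 1.04-fold higher share in the pulldown. Within the miR-17 seed family miR-93-5p made up 94.1% of the pulldown reads (93.4 to 94.8) and 94.2% of the control reads (93.2 to 95.1). In the authors' deposited table its log2 fold change is −0.01, from 1 library per group. Of the 7 members, 0 are called different in the authors' deposited table, where 6.39% of all 407 miRNAs are.

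miR-20a-5p, of the MIR17HG polycistron, came next. It had 197 pulldown reads and 100 control reads, 973 RPM (841 to 1118) and 898 RPM (730 to 1092). Its ratio was 1.08 (0.848 to 1.39), and the libraries were not distinguishable at this depth. It was 20.1-fold (17.4 to 23.3) below miR-93-5p in the pulldown and 21.9-fold (18 to 27.1) below it in the control. It has the lowest p of the 7 in the authors' deposited table, 0.268, with an adjusted p of 0.849.

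miR-17-5p, which gives the family its name, had 34 reads in the pulldown and 30 in the control. Its level was 168 RPM (116 to 235) against 269 RPM (182 to 384), the lowest pulldown to control ratio of the 7. It was 1.60-fold lower in the pulldown, with an interval from 2.70-fold lower to 1.05-fold higher, so equality was not excluded. Its seed mate miR-20a-5p, from the same primary transcript, pointed the other way. The odds of a read coming from the pulldown were 0.575 times (0.322 to 1.04) those of miR-20a-5p, a value that does not depend on how the libraries are scaled. That interval includes 1, so these neighbours were not separated.

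miR-106b-5p, made from the hairpin next to MIR93, was the scarcest member, with 15 pulldown reads and 5 control reads. Its level was 74.1 RPM (41.4 to 122) and 44.9 RPM (14.6 to 105). Its ratio of 1.65, the highest of the 7, had an interval from 0.570 to 5.80 that holds a 2-fold difference in the higher direction and none at all. Summed over its 4 measured members, the miR-17 seed family had 4199 reads against 2330, for a ratio of 0.991 (0.942 to 1.04). Without miR-93-5p the other three had 246 reads against 135, for a ratio of 1.0 (0.809 to 1.25).

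miR-18a-5p, whose seed is a close variant of the miR-17 seed, had 19 and 8 reads. Its level was 93.8 RPM (56.5 to 146) in the pulldown and 71.8 RPM (31.0 to 141) in the control, a ratio of 1.31 (0.546 to 3.45). With total reads, that interval holds equality and a 2-fold higher share in the pulldown, but not a 2-fold lower one. This miRNA has been named elsewhere as an SNHG15 partner, a partnership that was not tested here.

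The miR-19 seed, carried by the cluster's key oncogenic members in lymphoma models, was represented by miR-19b-3p and miR-19a-3p. miR-19b-3p had 70 and 45 reads, 346 RPM (269 to 437) and 404 RPM (295 to 540), with a ratio of 0.856 (0.580 to 1.27). miR-19a-3p had 24 and 11 reads, 118 RPM (75.9 to 176) and 98.7 RPM (49.3 to 177), with a ratio of 1.20 (0.566 to 2.71). miR-19b-3p stood above miR-19a-3p in both libraries, with 74.5% (64.4 to 82.9) and 80.4% (67.6 to 89.8) of miR-19 reads. The sum of both was 94 and 56 reads, a ratio of 0.923 (0.656 to 1.31).

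**Figure D2:**
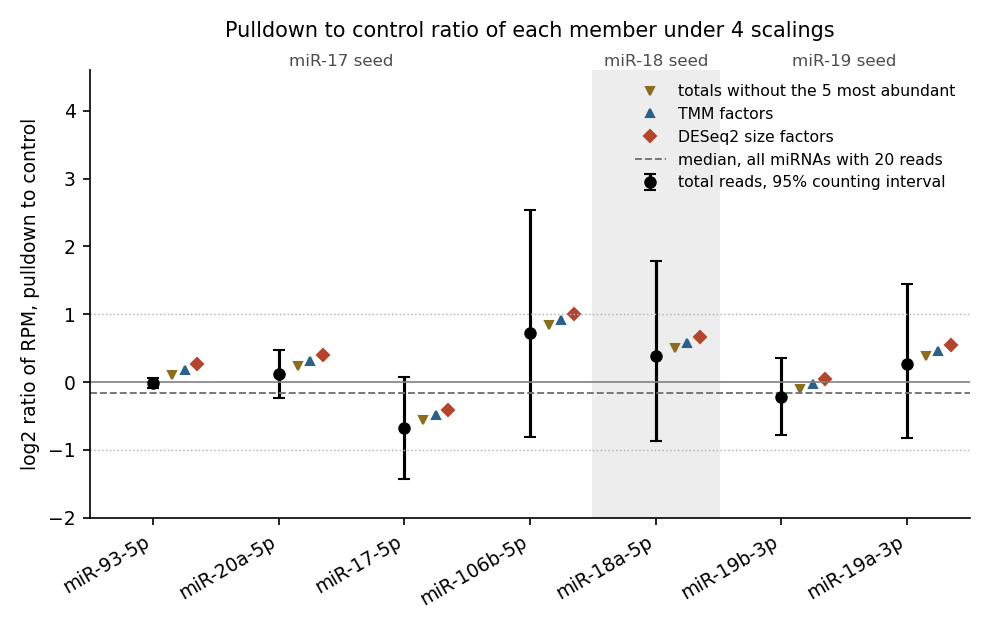
log2 ratio of RPM, pulldown to control, for each member (circles, total reads, exact 95% counting intervals), with the same ratio under TMM factors, DESeq2 size factors and totals without the 5 most abundant miRNAs, the median of all 161 miRNAs dashed and 2-fold dotted. Each interval scaled by total reads spans 0, and the other scalings shift every member upward together, so that miR-93-5p passes from −0.01 to between 0.11 and 0.26.

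The order of levels was the same in both libraries: miR-93-5p, miR-20a-5p, miR-19b-3p, miR-17-5p, miR-19a-3p, miR-18a-5p, miR-106b-5p. miR-93-5p and miR-20a-5p each stood above the next member by more than counting error in both. In the pulldown miR-19b-3p was 2.06-fold (1.35 to 3.20) above miR-17-5p, while in the control the ratio of 1.5 (0.924 to 2.47) included 1. In the control miR-17-5p was 2.73-fold (1.33 to 6.03) above miR-19a-3p, while in the pulldown the ratio of 1.42 (0.816 to 2.50) included 1. miR-19a-3p was not separated from miR-18a-5p, nor miR-18a-5p from miR-106b-5p, in either library. Among all 21 pairs of members, 0 had a pulldown to control odds ratio whose interval excluded 1. The 6 odds ratios against miR-93-5p ran from 0.629 (0.373 to 1.07) for miR-17-5p to 1.67 (0.574 to 5.87) for miR-106b-5p.

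Summed by cluster, the members had ratios whose intervals overlapped. The 5 members with a hairpin in MIR17HG summed to 344 and 194 reads, 1698 and 1741 RPM, with a ratio of 0.975 (0.816 to 1.17). miR-93-5p and miR-106b-5p, from MCM7, summed to 3968 and 2200 reads, 19589 and 19746 RPM, with a ratio of 0.992 (0.941 to 1.05). Nearly all of the latter sum is miR-93-5p. miR-106b-5p had fewer reads than each of the MIR17HG members, but was not separated from the nearest, miR-18a-5p, in either library.

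Scaling moved the sign of small ratios. The median log2 ratio of all 161 miRNAs rose by 0.19 under TMM factors, by 0.28 under DESeq2 size factors and by 0.12 when the 5 most abundant miRNAs were kept out of the totals. The number of members above a ratio of 1 rose from 4 of 7 to 5, 6 and 5 in turn. The share of all 161 above it rose from 39.8% to 52.2%, 60.2% and 48.4%. The member counts include miR-106b-5p and miR-18a-5p, which lay above 1 each time but, with fewer than 20 reads, are not among the 161. With total reads, miR-20a-5p and miR-19a-3p were above 1 among the 5 members with 20 reads, and the others below it. A scaling moves all miRNAs alike, so 5 of the 7 lay above the median of all 161 under each one. Those 5 include miR-106b-5p and miR-18a-5p. Of the 5 members with 20 reads, miR-20a-5p, miR-93-5p and miR-19a-3p lay above that median, and miR-17-5p and miR-19b-3p below it. By definition a median has as many miRNAs above it as below it. miR-17-5p stayed below 1 under these scalings, and miR-106b-5p, with fewer than 20 reads, reached a ratio of 2.0 (0.691 to 7.03) with DESeq2 size factors. The interval of miR-93-5p excluded equality under these 3 scalings, at ratios of 1.13 (1.08 to 1.20), 1.20 (1.14 to 1.27) and 1.08 (1.02 to 1.14). That of miR-20a-5p did with DESeq2 size factors, at 1.31 (1.03 to 1.69). These are 1, 2 and 1 of the 5 members with 20 reads, while over all 161 miRNAs the interval excluded equality for 31.7% with TMM factors, 34.8% with DESeq2 size factors and 30.4% without the 5 most abundant. The counts are too small to set the members apart from that background. No measure of the RNA on each resin was used here, so a ratio speaks of shares and not of amounts.

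**Figure D3:**
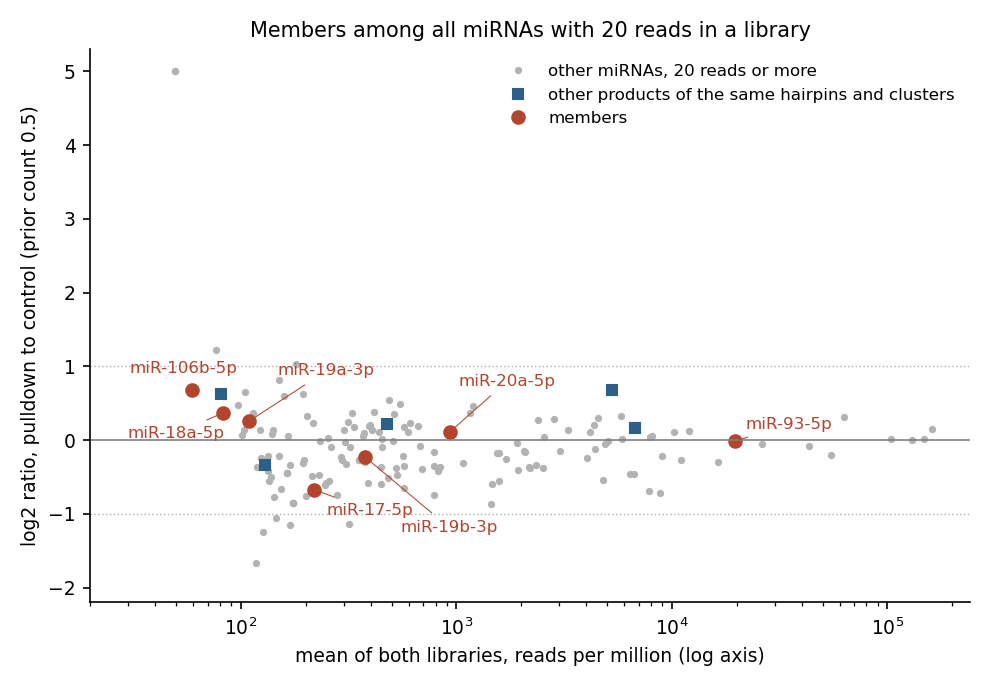
log2 ratio, pulldown to control, with a prior count of 0.5, against the mean RPM of both libraries on a log axis, for the 161 miRNAs that reached 20 reads in either library and the 2 members below that number. Of the 7 members, 0 pass the dotted 2-fold lines, and miR-106b-5p (0.68) and miR-17-5p (−0.67) lie nearest to them.

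The passenger strands and the other products of these and the paralogous hairpins were taken as a list of 19, of which 7 were in the table and 5 had 20 reads. Of these 5, 0 differed by 2-fold and 2 had an interval that excluded equality, miR-92a-3p and miR-25-3p, near the 34.8% of all 161 miRNAs. miR-92a-3p, from the same primary transcript as miR-17-5p, had 1319 against 452 reads and a ratio of 1.61 (1.44 to 1.79). Its odds were 1.65 times (1.33 to 2.03) those of the 5 MIR17HG members summed, with no dependence on scaling, although miR-92a-3p and miR-19b-3p also have hairpins on chromosome X. miR-25-3p, from the MCM7 intron, had 1438 against 706 reads and odds 1.13 times (1.02 to 1.26) those of miR-93-5p. Both odds comparisons were chosen after the values were seen. miR-106b-3p had a ratio of 1.17 (0.824 to 1.67), miR-25-5p of 1.57 (0.638 to 4.40) and miR-93-3p of 0.791 (0.400 to 1.60). miR-17-3p, with 5 against 6 reads, and miR-18a-3p, with 8 against 3, were below 20 reads.

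Both arms were measured for 4 of the hairpins, and in 1 of them the listed guide was the minor arm. MIR93 gave 99.4% 5p reads in the pulldown (99.1 to 99.6) and 99.3% in the control (98.8 to 99.6). MIR17 gave 87.2% (72.6 to 95.7) and 83.3% (67.2 to 93.6), and MIR18A 70.4% (49.8 to 86.2) and 72.7% (39.0 to 94.0). MIR106B gave 12.6% (7.23 to 19.9) and 9.26% (3.08 to 20.3). Its 3p arm had 104 reads in the pulldown and 49 in the control, 6.93-fold (4.02 to 12.8) and 9.80-fold (3.93 to 31.5) above the 5p arm. The hairpins of miR-17 and miR-106b are shown 5′ to 3′ to set these arms side by side, with the 5p and then the 3p miRNA in capitals (RefSeq, GRCh38.p14):
MIR17: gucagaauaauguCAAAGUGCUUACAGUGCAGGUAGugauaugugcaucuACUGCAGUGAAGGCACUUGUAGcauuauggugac
MIR106B: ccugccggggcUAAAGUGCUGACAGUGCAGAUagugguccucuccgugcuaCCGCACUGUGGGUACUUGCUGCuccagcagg

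The listed miR-106b-5p is 21 bases long and differs from miR-17-5p and from miR-20a-5p at 3 of them each. Whether the assignment of reads bears on its low count was not tested. A difference between resins in the balance of the arms was not detectable at this depth. The odds of 5p against 3p in the pulldown, relative to the control, were 1.36 (0.309 to 6.23) for MIR17, 0.891 (0.121 to 5.14) for MIR18A, 1.25 (0.617 to 2.48) for MIR93 and 1.41 (0.454 to 5.25) for MIR106B. Over all 40 miRNAs with both arms and at least 50 reads on them in each library, the arm with more reads was the 3p arm in both libraries for 15, the 5p arm in both for 25, and changed between libraries for 0.

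**Figure D4:**
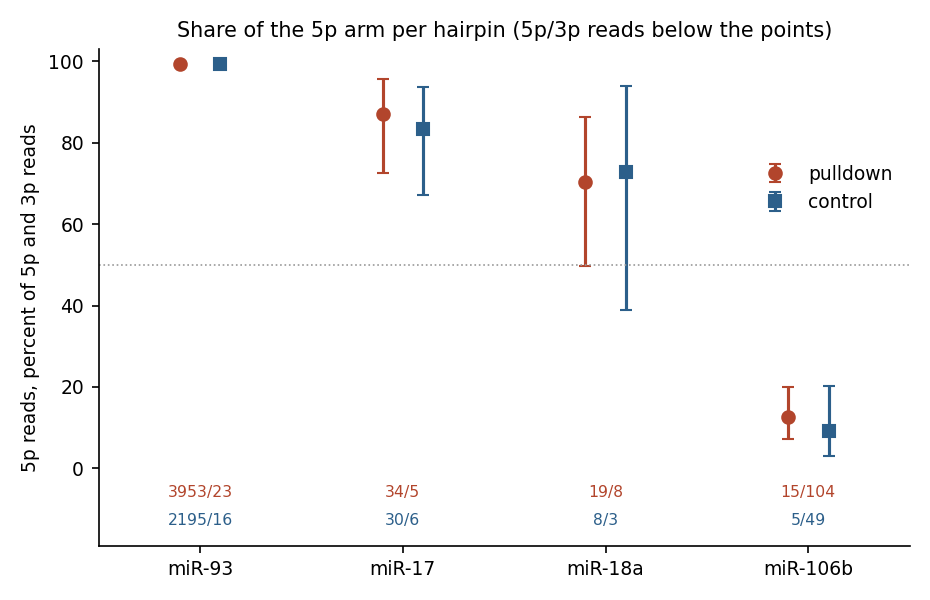
Share of 5p reads among the 5p and 3p reads of each hairpin, in percent, with exact 95% binomial intervals, for the pulldown (circles) and control (squares), and the reads of each arm (5p/3p) below the points. The 5p arm holds 70.4% or more in MIR93, MIR17 and MIR18A and 12.6% or less in MIR106B, and the intervals of the libraries overlap for each hairpin.

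Matches to the 3 seeds were searched in the sense strand of the 10 SNHG15 transcripts of GENCODE 29 (chromosome 7, 44983023 to 44986961, minus strand, a lincRNA), as the 7 bases that pair with bases 2 to 8. Which of them the tagged construct carries is not stated. GCACTTT, the match to the miR-17 seed, was in 0 of 10 transcripts, and TTTGCAC, the match to the miR-19 seed, in 0 of 10. GCACCTT, the match to the miR-18 seed, was in 7 of 10, at 1 genome position. Among 911 lincRNA transcripts of 900 to 1100 bases, 9.0% held GCACTTT, 5.82% TTTGCAC and 8.01% GCACCTT. The SNHG15 transcripts run from 505 to 3116 bases, and those with GCACCTT share its position. The counts out of 10 therefore cannot be set against these percentages. In SNHG15-203, a transcript of 982 bases, the match lies at bases 746 to 752, in exon 5 of 5. Its surroundings are shown because miR-18a-5p is the only measured member with a match, with the match in capitals (plus-strand coordinates chr7:44983245-44983274, GRCh38, sequence read on the minus strand):
SNHG15-203: tgaatgcaagccttgGCACCTTaattgagc

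The base after the match is an A, the base that faces position 1 of the miRNA in the longer form of a seed match. After the seed, only 2 of the remaining bases of miR-18a-5p pair here when aligned without gaps. Of 267 distinct seeds among the 321 measured miRNAs with a RefSeq sequence, 6.74% had a 7-base match in this transcript. A match is a description of the letters and not a site of binding. The ratio of miR-18a-5p, 1.31 (0.546 to 3.45), has an interval that holds the ratios of both other seed families, 0.991 for miR-17 and 0.923 for miR-19.

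By distance in log2 RPM over the 2 libraries, the named miRNAs nearest to miR-93-5p were miR-29a-3p (0.43), miR-191-5p (0.59) and miR-125a-5p (1.0). Those nearest to miR-20a-5p were let-7c-5p (0.40), miR-361-5p (0.41) and miR-186-5p (0.42). These are likenesses of level in 2 libraries, and their counting error was not estimated.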

How the data were processed

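Small RNA from 1 pulldown and 1 control library was isolated (mirVana) and made into libraries (QIAseq miRNA Library Kit), per the labels' protocols. Per the submitters' processing notes the build was GRCh38, with aligner, annotation and any collapsing of molecular identifiers not given in the sources used here. Raw counts were deposited by the authors in whole numbers, for 407 miRNAs. They also deposited values headed Tpm, which are RPM, per the file headers and values; these imply totals of 202630 and 111453 reads, 70 and 39 more than the counts in the table. The log2 fold changes, p-values and adjusted p-values in the authors' deposited table are the authors', from edgeR per the file names. There were 0 columns of other samples.

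Ratios were computed from counts scaled by the table's totals, with exact conditional binomial (Clopper-Pearson) intervals. log2 ratios carry a prior count of 0.5. Odds ratios have exact conditional intervals, and levels exact Poisson intervals. With 1 library per group no p-value was computed, and a rule of 2-fold among miRNAs with 20 reads was used. Named miRNAs were all measured members, partners with 20 reads, and for members with 100 reads the 3 nearest in level. Alternatives were edgeR 4.0.16 TMM factors, DESeq2 1.42.0 size factors, other totals, a prior count of 5, other read minimums and a 1.5-fold threshold. Statistics used scipy 1.17.1, and steps were tested on simulated data. The simulated counts held Poisson error only, and the shift in their totals was corrected with its known value. The choice of scaling was therefore not tested. The members and lists were chosen with earlier results of these data known.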

Additional observations from a re-analysis of the deposited data

How the results depend on the processing

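No paired analysis was possible because each group held 1 library, and for the same reason no library could be left out. With TMM factors, DESeq2 size factors and totals without the 5 most abundant miRNAs, the log2 ratio of the miR-17 seed family moved from −0.01 to 0.18, 0.26 and 0.11. The number of members with 20 reads whose interval excluded equality rose from 0 to 1, 2 and 1 of 5, beside 31.7%, 34.8% and 30.4% of all 161 miRNAs. These scalings raise all miRNAs together by construction. The DESeq2 size factors, 1.22 and 0.816, are medians over miRNAs of few reads as well. At 1.5-fold, 1 member passed (miR-17-5p, lower) among those with 20 reads, against 0 at 2-fold; 21.1% of all 161 passed 1.5-fold. As a share of all member reads, miR-93-5p made up 91.7% in the pulldown and 91.7% in the control, against 94.1% and 94.2% of miR-17 seed reads, because the denominator is larger. The remaining 36 alternative values of summary results stayed within 1.5 times of a count or inside the interval or spread. These limits are wide. With TMM factors, DESeq2 size factors and totals without the 5 most abundant, the median log2 ratio of the members went from 0.12 to 0.31, 0.39 and 0.24. The miR-19 family went from −0.11 to 0.08, 0.16 and 0.01, a change of sign. Totals implied by the authors' RPM, an alternative chosen after seeing the data, left the miR-17 family at −0.01. Depth limits miR-106b-5p and miR-18a-5p most, with fewer than 20 reads in each library.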
